A study of Mus musculus with 10 samples.

Results

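The 10 genes studied here belong to insulin, insulin-like growth factor (IGF) and leptin signalling, and they were followed through the brains of adult mice that differed in the protein content of the perinatal diet. They were the receptor genes Insr, Igf1r and Lepr, the ligand gene Igf1, the binding protein gene Igfbp2, the adaptor genes Irs1, Irs2 and Irs4, the feedback inhibitor gene Socs3 and the transcription factor gene Foxo1. The 10 genes were chosen by name from 47729 genes in the count table, and each matched a single Ensembl gene. Low-protein (LP) mice had parents on a low-protein diet during 5 days of mating, and their dams stayed on it through pregnancy and lactation. Normal-protein (NP) mice had parents and dams on a normal-protein diet over the same time. All parents received standard chow and then the normal-protein diet from 5 days before mating, and all pups were weaned at postnatal day 21 onto the normal-protein diet for 5 weeks. RNA of CF1 mice (crlfcen:CF1) was taken at postnatal day 56 from hypothalamus of LP and NP males, and from hippocampus and prefrontal cortex of LP and NP females and males. This gives 10 libraries, 1 for each region, sex and diet, and 5 pairs of an LP and an NP library. Whether a library is 1 animal or a pool is not given in the sources used here, so p-values measure the spread between these libraries. Whether libraries of different regions come from the same animals is not given either.

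Insulin and IGF1 bind receptor tyrosine kinases, which phosphorylate the insulin receptor substrates (IRS proteins). Phosphorylated IRS proteins recruit PI3-kinase, and AKT downstream of it keeps FOXO1 out of the nucleus. Leptin, the fat-cell hormone, acts through its receptor, JAK kinases and STAT transcription factors. These induce SOCS3, a protein that in turn limits both leptin and insulin signalling. In the brain these hormones are best known for their action on hypothalamic neurons that govern feeding and energy use, and IRS2 is the substrate tied to that control in mouse knockouts.

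Total counts ranged from 7871010 to 16265481 per library. One library, that of NP females in hippocampus, lacked counts past a point on chromosome 4, on chromosomes 5 to 9 and on X, Y and M. Its 19598 genes from there on were treated as not measured. Igf1r, Insr, Irs2 and Irs4 are among them, so these 4 genes rest on 9 libraries and the other 6 on 10. Summed marker lists followed the tissue labels, though not every single gene did. Levels are given as CPM, counts scaled to library size. The hypothalamic list summed to 589 CPM in LP and 929 CPM in NP hypothalamus, against 21.4 to 30.0 elsewhere. The hippocampal list summed to 654 to 708 in hippocampus, against 46.6 to 148 elsewhere. The prefrontal list summed to 1041 to 1086 in prefrontal cortex, against 527 to 659 elsewhere. By the region test described below, 3 of 10 prefrontal markers were higher in hypothalamus than in prefrontal cortex and 7 lower. In hippocampus 1 was higher than in prefrontal cortex and 8 lower. Of 16 hypothalamic markers, 14 were higher in hypothalamus than in prefrontal cortex and 2 lower. All 10 hippocampal markers were higher in hippocampus than in either other region. Pituitary genes summed to 550 CPM in the male NP hippocampus library, against 1.04 to 10.2 CPM in the other hippocampus libraries, and to 26.4 in LP and 106 in NP hypothalamus. In bulk tissue, fewer cells of a type and less RNA per cell cannot be told apart.

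The upstream sequences of the adaptor genes are shown because Irs2 and Irs4 carry the results on diet and on region. RefSeq promoter entries (GRCm38.p6) existed for 9 of the 10 genes, all but Insr. In the 250 bases before the start, the longest run shared by any members was 17 bases, found in Irs2 and Irs4 in the same direction. Of 32851 promoters in the table, 2 held this run, those of Irs2 and Irs4. Irs1 shared 10 of these bases with Irs2. Capitals mark the shared bases, which contain CACGTG, an E-box, and each line reads 5′ to 3′ along the gene's minus strand.
Irs2, chr8:11008930-11009010: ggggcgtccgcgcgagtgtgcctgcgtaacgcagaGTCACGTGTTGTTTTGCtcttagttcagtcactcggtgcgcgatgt
Irs4, chrX:141725322-141725408: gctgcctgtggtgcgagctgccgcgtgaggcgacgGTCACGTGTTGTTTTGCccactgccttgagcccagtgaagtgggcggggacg
Irs1, chr1:82291512-82291591: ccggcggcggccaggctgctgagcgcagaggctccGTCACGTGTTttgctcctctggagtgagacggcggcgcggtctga
Counted from the RefSeq start, the run lies at -46 to -30 in Irs2 and at -156 to -140 in Irs4. The GENCODE gene of Irs2 starts further downstream, at 11008458. Bases checked after the RefSeq start of Irs2 matched no GENCODE transcript of the gene. In Irs1 the 10 bases lie at -117 to -108, and the stretch holds no GENCODE exon base in any of the 3 genes. CACGTG occurred in 6.02% of all promoters of the table, and among the members also in 1 of the entries of Igfbp2. Shared runs and this motif were searched for after these sequences had been read. Runs of 10 or more bases were shared by other members too, such as 13 bases in Igf1 and Igfbp2 and 10 in Igf1r and Irs2.

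The 4 motifs searched next were looked for on both strands of the same 250 bases. They were TGACGTCA (the cAMP response element), TGACG (its core, which it contains), GTAAACA (the forkhead core) and TTCNNNGAA (the STAT element). They occurred in 1.55%, 17.8%, 3.17% and 7.02% of all promoters. Among the members there were 2 matches. TGACG lay on the other strand of Irs1, at -118 to -114, where it overlaps the E-box. TTCNNNGAA lay in Socs3, a gene that STAT3 induces after leptin, at -154 to -146 from the RefSeq start. Bases checked after this start matched no GENCODE transcript of Socs3. The match lies inside the GENCODE gene, which begins at 117970047 on the minus strand, but outside its exons. The match is shown in capitals with its neighbours, again along the minus strand.
Socs3, chr11:117969502-117969530: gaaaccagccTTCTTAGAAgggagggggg
No match was found in the window of Irs2, Irs4, Igf1r, Igf1, Lepr, Igfbp2 or Foxo1, which says only that these letters are not there.

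**Figure D1:**
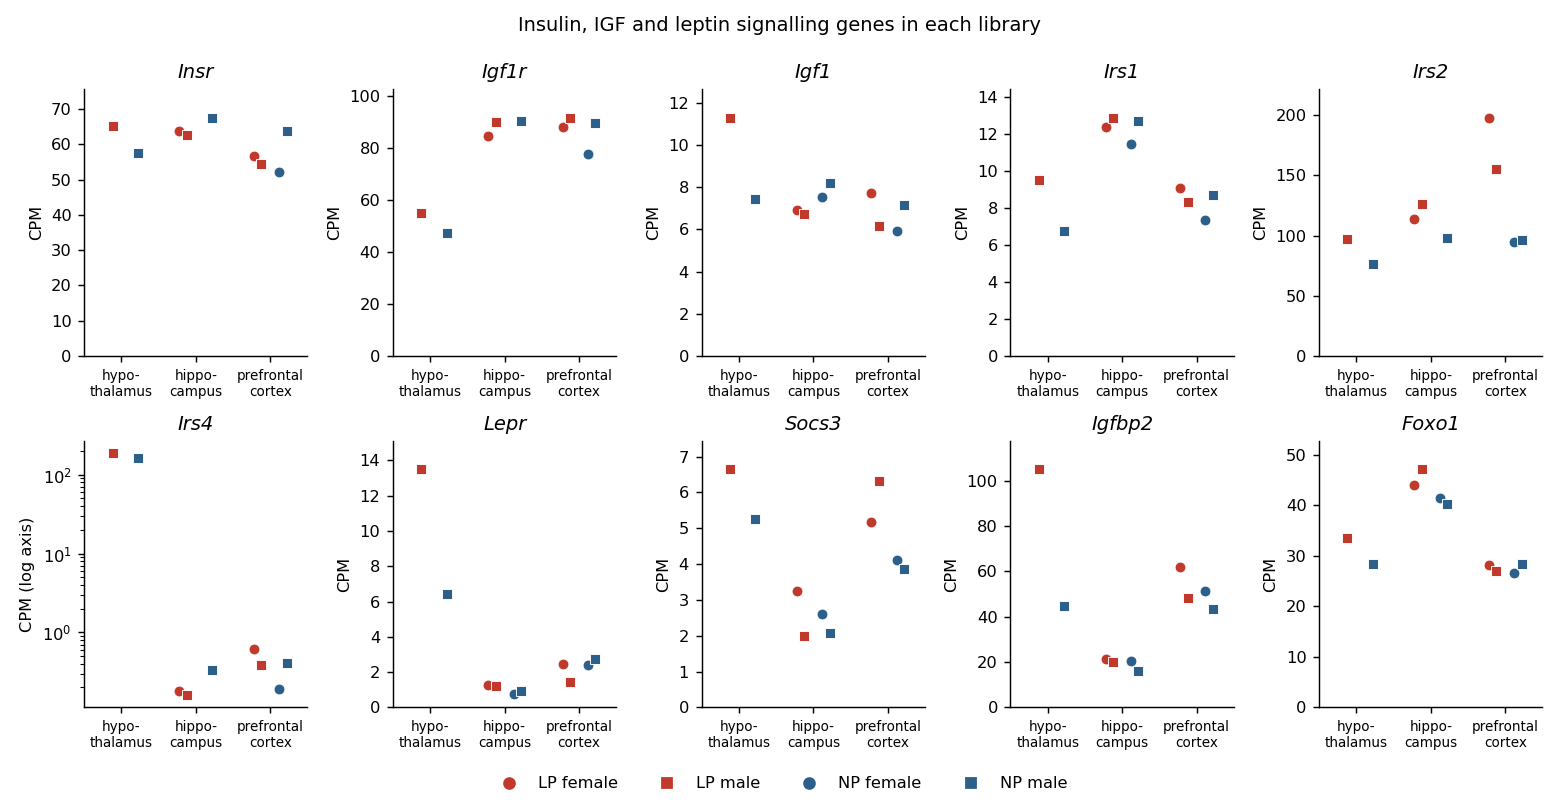
CPM (y axis, from 0 except for Irs4, which has a log axis) of the 10 genes in each library by region, with LP in red left of NP in blue, circles for females and squares for males. Irs2 is higher in every LP library than in its NP partner, Irs4 stands at 190 CPM in LP and 164 CPM in NP hypothalamus and below 1 CPM elsewhere, and Lepr and Igfbp2 have their highest values in LP hypothalamus.

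Differences between regions were tested over all libraries with sex and diet as terms (edgeR's quasi-likelihood test, Benjamini-Hochberg adjustment over all genes, threshold 0.05). The 3 region comparisons share libraries and are therefore given side by side. In hypothalamus against prefrontal cortex 4 of the 10 genes were higher, 2 lower and 4 not past the threshold, with 63.9% of all genes called. In hypothalamus against hippocampus 4 were higher, 3 lower and 3 not past it, with 60.7% of all genes called. In hippocampus against prefrontal cortex 2 were higher, 4 lower and 4 not past it, with 54.0% of all genes called. Irs4 is among the higher genes of both hypothalamic comparisons and entered them only through hypothalamus, so without it 3 of 9 were higher in each. Over the 10 genes the medians were 0.24, 0.12 and -0.16 on the log2 scale in the 3 comparisons, beside 0.02, 0.01 and -0.01 for all genes tested. These medians include Irs4. Without it the middle genes, in the same order, were Foxo1 at 0.16, Insr at -0.10 and Igf1r at -0.01, so the second median changed sign.

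Among the receptors, Insr, the insulin receptor gene (chromosome 8, 3122061 to 3279617, minus strand), varied least. It had 65.3 and 57.6 CPM in LP and NP hypothalamus, 62.8 to 67.6 CPM in hippocampus and 52.3 to 63.8 CPM in prefrontal cortex. The regions overlapped, and none of the 3 differences passed the test. Hypothalamus minus prefrontal cortex was 0.07 on the log2 scale (95% interval -0.11 to 0.26), hypothalamus minus hippocampus -0.10 (-0.28 to 0.08), and hippocampus minus prefrontal cortex 0.18 (0.02 to 0.33, adjusted p = 0.0567). Leaving out a single library brought Insr past the threshold in 2 of 13 alternatives for hippocampus against prefrontal cortex and in 1 of 11 for hypothalamus against hippocampus.

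Igf1r, the receptor gene of IGF1 (chromosome 7, 67952827 to 68233668, plus strand), was lower in hypothalamus. It had 54.8 and 47.1 CPM in LP and NP hypothalamus, against 84.4 to 90.4 CPM in hippocampus and 77.7 to 91.6 CPM in prefrontal cortex. Hypothalamus lay below every library of the other regions, which overlapped with each other. The log2 difference was -0.84 ± 0.07 (SE, adjusted p = 3.44e-08) from prefrontal cortex and -0.82 ± 0.07 (adjusted p = 4.35e-08) from hippocampus. Hippocampus minus prefrontal cortex was -0.01 (95% interval -0.14 to 0.11).

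Lepr, the leptin receptor gene (chromosome 4, 101717404 to 101815352, plus strand), was higher in hypothalamus, where it had 13.5 CPM in the LP and 6.44 CPM in the NP library. It had 1.26 and 1.19 CPM in LP hippocampus of females and males, and 0.78 and 0.918 CPM in NP hippocampus of females and males. Prefrontal cortex of females and males had 2.48 and 1.45 CPM in LP and 2.39 and 2.72 CPM in NP. The 3 regions did not overlap, with hypothalamus highest and hippocampus lowest. Counts were 228 in LP and 120 in NP hypothalamus and 9 to 33 elsewhere, so the lower regions carry wide counting error. Lepr was 4.62-fold higher in hypothalamus than in prefrontal cortex (log2 2.21 ± 0.29 SE, adjusted p = 1.1e-05) and 9.93-fold higher than in hippocampus (3.31 ± 0.33, adjusted p = 7.35e-07). Both calls held in all 11 alternatives. Their log2 values ran from 1.53, without the male LP prefrontal library or without LP hypothalamus, to 2.76 against prefrontal cortex. Against hippocampus they ran from 2.63 without LP hypothalamus to 3.82 without NP hypothalamus. Hippocampus was lower than prefrontal cortex (log2 difference -1.11 ± 0.38, adjusted p = 0.0239), a call lost with male libraries only and without either NP prefrontal or either LP hippocampus library, and the 13 alternatives gave -1.54 to -0.79.

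Like Lepr, markers of the leptomeninges, the membranes around the brain, where leptin receptor is also made, were highest in hypothalamus. All 12 listed genes of these membranes had their highest value in LP hypothalamus and their next highest in NP hypothalamus. The 7 of them measured in every library summed to 385 CPM in LP and 170 CPM in NP hypothalamus, against 36.2 to 71.8 CPM in the other 8 libraries, and none of the 7 was at 0 in any library. The sums overlapped between hippocampus (37.1 to 52.8 CPM) and prefrontal cortex (36.2 to 71.8 CPM), while Lepr did not overlap between these regions. The part of the leptomeningeal genes in the Lepr values was not tested.

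Igf1, the ligand gene (chromosome 10, 87858265 to 87937042, plus strand), was low, at 11.3 and 7.46 CPM in LP and NP hypothalamus, 6.74 to 8.18 CPM in hippocampus and 5.93 to 7.75 CPM in prefrontal cortex. The regions overlapped. Hypothalamus minus prefrontal cortex was 0.46 ± 0.19 (SE, adjusted p = 0.0404), lost in 6 of 11 alternatives, with 0.11 without the LP hypothalamus library. Hypothalamus minus hippocampus was 0.34 (95% interval -0.06 to 0.73), past the threshold at 0.65 without NP hypothalamus, and hippocampus minus prefrontal cortex 0.13 (-0.22 to 0.48).

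Igfbp2 (chromosome 1, 72824503 to 72852474, plus strand) encodes a secreted protein that binds IGFs. It had 105 CPM in LP and 44.5 CPM in NP hypothalamus. Hippocampus of females and males had 21.3 and 19.9 CPM in LP and 20.5 and 16.0 CPM in NP. Prefrontal cortex of females and males had 61.7 and 48.4 CPM in LP and 51.3 and 43.4 CPM in NP. Hippocampus lay below all other libraries, and NP hypothalamus lay within the range of prefrontal cortex. Igfbp2 was 4.08-fold higher in hypothalamus than in hippocampus (log2 2.03 ± 0.20 SE, adjusted p = 6.25e-07; 1.44 without LP hypothalamus) and lower in hippocampus than in prefrontal cortex (-1.40 ± 0.17, adjusted p = 7.24e-06). The difference of hypothalamus from prefrontal cortex was 0.63 ± 0.18 (adjusted p = 0.00776). It was 0.04 (adjusted p = 0.712) without the LP hypothalamus library, and it did not pass with DESeq2 or without the male LP prefrontal library (values of 0.61 and 0.46).

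The 3 adaptor genes had different places in the brain. Their levels are set against each other as CPM per kilobase of exon. In hypothalamus Irs4 was highest, at 28.2 ± 2.9, then Irs2 at 13.7 ± 2.4 and Irs1 at 0.89 ± 0.21 CPM per kilobase (SD, n = 2 each). In hippocampus Irs2 was highest, at 17.8 ± 2.2 (n = 3), then Irs1 at 1.35 ± 0.07 (n = 4) and Irs4 at 0.0356 ± 0.015 CPM per kilobase (n = 3). Prefrontal cortex had the same order, with Irs2 at 21.5 ± 7.9, Irs1 at 0.916 ± 0.08 and Irs4 at 0.0637 ± 0.028 CPM per kilobase (n = 4 each).

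Irs4 (chromosome X, 141710998 to 141725263, minus strand), an adaptor gene known for its hypothalamic expression, had 190 CPM in LP and 164 CPM in NP hypothalamus, from 3199 and 3061 counts. Each of the other 7 libraries that measured it had 2 to 6 counts. These were 0.159 to 0.334 CPM in hippocampus and 0.191 to 0.62 CPM in prefrontal cortex. On unscaled total counts, 3 counts make 0.221 to 0.292 CPM there, so these values are at or near that level. The fitted log2 difference was 8.71 from prefrontal cortex (95% interval 8.37 to 9.06) and 9.56 from hippocampus (9.18 to 9.93). Irs4 entered the fit only through hypothalamus, so these are a description with no test. An antisense gene, Gm15295, shares 383 exon bases with it and had 0 to 11 counts, and the strand setting of the counting is not given in the sources used here.

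Irs1 (chromosome 1, 82233101 to 82291416, minus strand) was highest in hippocampus, at 11.5 to 12.9 CPM, against 9.09 and 8.31 CPM in LP and 7.36 and 8.73 CPM in NP prefrontal cortex of females and males. LP hypothalamus had 9.5 CPM and NP hypothalamus 6.76 CPM. Hippocampus lay above every other library, while hypothalamus and prefrontal cortex overlapped. Hippocampus minus prefrontal cortex was 0.56 ± 0.11 (SE, adjusted p = 0.000678), hypothalamus minus hippocampus -0.65 ± 0.14 (adjusted p = 0.00086), and hypothalamus minus prefrontal cortex -0.09 (95% interval -0.39 to 0.22). An opposite-strand gene, Gm9747, shares 2822 exon bases with Irs1 and was listed at 0 in all libraries.

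Foxo1 (chromosome 3, 52268336 to 52353221, plus strand) shared the hippocampal excess of Irs1. It had 40.3 to 47.1 CPM in hippocampus, 33.5 and 28.4 CPM in LP and NP hypothalamus and 26.6 to 28.3 CPM in prefrontal cortex. Hippocampus was higher than prefrontal cortex by 0.65 ± 0.07 (SE, 1.57-fold, adjusted p = 1.35e-06), and hypothalamus was lower than hippocampus (log2 difference -0.49 ± 0.08, adjusted p = 0.000108). These calls held under all 13 and 11 alternatives run for them. An antisense gene, Gm20402, shares 674 exon bases with Foxo1 and was listed at 0. Hypothalamus minus prefrontal cortex was 0.16 (95% interval -0.02 to 0.34).

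Socs3 (chromosome 11, 117966079 to 117970047, minus strand) followed Igfbp2 and Lepr in being lowest in hippocampus. It had 6.65 and 5.26 CPM in LP and NP hypothalamus. In females and males it had 3.25 and 1.98 CPM in LP hippocampus, 2.60 and 2.09 CPM in NP hippocampus, 5.17 and 6.33 CPM in LP prefrontal cortex and 4.11 and 3.87 CPM in NP prefrontal cortex. No hippocampus library reached the lowest value of another region. Socs3 was 2.5-fold higher in hypothalamus than in hippocampus (log2 1.32 ± 0.21 SE, adjusted p = 8.69e-05), and hippocampus was lower than prefrontal cortex (log2 difference -0.997 ± 0.19, adjusted p = 0.000438). Hypothalamus minus prefrontal cortex was 0.33 (95% interval -0.08 to 0.73), past the threshold at 0.62 without the male LP prefrontal library.

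Irs2 (chromosome 8, 10984681 to 11008458, minus strand) was lower in hypothalamus than in prefrontal cortex (log2 difference -0.59 ± 0.13 SE, adjusted p = 0.000964). Hippocampus minus prefrontal cortex was -0.31 ± 0.11 (adjusted p = 0.0241), a call lost in 6 of 13 alternatives (-0.14 without the female LP hippocampus library and -0.16 without the female LP prefrontal library), and hypothalamus minus hippocampus -0.28 (95% interval -0.56 to 0.001). It was past the threshold in 3 of 11 alternatives, over which it ran from -0.415 to -0.09. Both hypothalamus libraries, at 97.5 CPM in LP and 76.0 CPM in NP, lay below the measured hippocampus libraries, at 98.2 to 126 CPM. Prefrontal cortex, at 94.8 to 198 CPM, overlapped both.

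**Figure D2:**
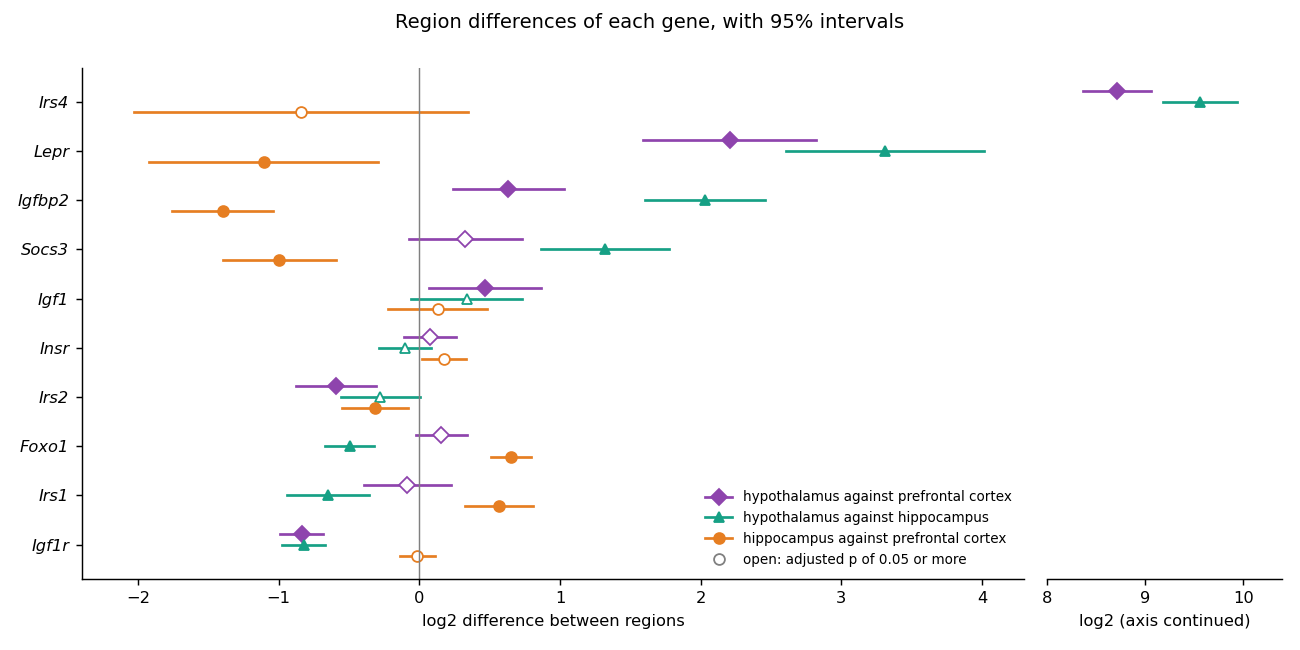
Log2 differences between regions (x axis, continued to the right for Irs4) of the 10 genes, each with its 95% interval from the edgeR fit; filled symbols passed an adjusted p of 0.05 and open symbols did not. Irs4, Lepr, Igfbp2 and Socs3 are higher in hypothalamus than in hippocampus, and Igf1r, Irs1 and Foxo1 are lower; Irs4 entered the fit only through hypothalamus.

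The wider pathway was described with lists of its other genes, whose counts stand beside those over all 17421 genes tested. Of these, 5786 were higher and 5351 lower in hypothalamus than in prefrontal cortex (63.9%), 5337 higher and 5233 lower than in hippocampus (60.7%), and 4785 higher and 4619 lower in hippocampus than in prefrontal cortex (54.0%). In hypothalamus against prefrontal cortex, 3 of 28 genes of PI3K, AKT and mTOR were higher and 20 lower, with a list median of -0.33 on the log2 scale. In hypothalamus against hippocampus 3 were higher and 16 lower (median -0.39), and in hippocampus against prefrontal cortex 8 were higher and 12 lower (median -0.05). Pik3r2, which encodes a regulatory subunit of PI3-kinase, was lower in hypothalamus than in prefrontal cortex (log2 difference -1.62 ± 0.06 SE, adjusted p = 6.49e-13). Adaptors and phosphatases split evenly in hypothalamus against prefrontal cortex, with 7 of 17 higher and 7 lower. Among them Grb10, whose protein binds and inhibits the insulin and IGF1 receptors, was higher in hypothalamus by 1.92 ± 0.07 (3.77-fold, adjusted p = 1.02e-11).

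Of 13 tested other ligands, receptors and binding proteins, 7 were higher and 3 lower in hypothalamus than in prefrontal cortex. Igf2, the other IGF ligand gene, was 9.15-fold higher (log2 3.19 ± 0.18 SE, adjusted p = 1.12e-10). All 12 leptomeningeal markers were higher in hypothalamus too, and their part in this value was not tested. Of 20 tested genes of leptin, JAK and STAT signalling 8 were higher and 6 lower, and Stat5b, a transcription factor gene of this pathway, was 2.15-fold higher in hypothalamus (1.11 ± 0.08, adjusted p = 2.09e-08). Of 18 tested FoxO factors and targets 4 were higher and 7 lower, and 7 did not pass, a share of calls near that of all genes. Of 8 tested growth hormone axis receptors 4 were higher and 3 lower, and the prolactin receptor gene Prlr was 117-fold higher (6.87 ± 0.25, adjusted p = 6.93e-12).

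Diet was tested over the LP and NP pairs of region and sex, with the pair as a block. The fit takes the pairs as independent. Pairs of the same sex would not be so if their regions came from the same animals. Irs2 was the single member past the threshold, and it was 1.53-fold higher in LP. It had 155 CPM in LP and 96.1 CPM in NP male prefrontal cortex, and 198 CPM in LP and 94.8 CPM in NP female prefrontal cortex. Male hippocampus had 126 CPM in LP and 98.2 CPM in NP, and male hypothalamus 97.5 CPM in LP and 76.0 CPM in NP. The female LP hippocampus library had 114 CPM, with no measured NP partner. Every LP library lay above its NP partner. Within hippocampus and prefrontal cortex LP libraries had 114 to 198 CPM, and NP libraries 94.8 to 98.2 CPM with a single measured one from hippocampus. The share of all genes with such a gap was not computed. The pair ratios, LP over NP on the log2 scale, were 0.69 in male and 1.06 in female prefrontal cortex, 0.36 in male hippocampus and 0.36 in male hypothalamus. Each exact 95% counting interval lay above 0.

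The fitted difference of Irs2 was 0.61 ± 0.09 (SE, 95% interval 0.41 to 0.81) over 4 pairs, with an adjusted p = 0.00555 by edgeR's quasi-likelihood test. The female hippocampus pair was dropped from this fit, which leaves 3 residual degrees of freedom for the 4 genes that the incomplete library does not hold. Irs2 passed under all 9 alternatives, with differences from 0.47 to 0.70 and adjusted p from 0.000555 to 0.0368. Over all 17402 genes tested, 1.38% were called (166 higher and 75 lower in LP), beside 1 of the 10 members. Irs2 had the 46th smallest p. An opposite-strand transcript, 9530052E02Rik, shares 162 exon bases with Irs2 and had 0 to 19 counts, beside at least 991 for Irs2 in every library of the pairs.

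Immediate early genes, which neurons switch on within minutes of activity, were mostly higher in LP as well. Of 17 listed, 12 were higher in LP and none lower, with a list median of 0.60. DESeq2 called 8, and edgeR called 5 without the female prefrontal pair and 12 without the hypothalamic pair. Homer1, a synaptic scaffold gene with an activity-induced short form, was higher by 0.62 ± 0.05 (SE, adjusted p = 5.82e-05). The 13 measured in every library summed to 4260 CPM in LP and 3599 CPM in NP male prefrontal cortex, to 3774 and 1996 CPM in LP and NP females, to 2004 and 1268 CPM in LP and NP male hippocampus, to 1399 and 868 CPM in LP and NP female hippocampus, and to 436 and 361 CPM in LP and NP hypothalamus. As LP over NP on the log2 scale, these sums gave 0.24 in male and 0.92 in female prefrontal cortex. They gave 0.66 in male hippocampus and 0.27 in male hypothalamus. Irs2 had 0.685, 1.065, 0.357 and 0.358 in the same pairs. Both were highest in female prefrontal cortex, and the remaining pairs differed in order. Of 10 listed heat shock genes 7 were also higher in LP, and all 5 listed blood genes were lower. All 10 listed oligodendrocyte genes had negative fitted differences (median -0.30), and 1 was called lower. Within prefrontal cortex 5 of 7 were called lower by edgeR and 0 by DESeq2. The 7 oligodendrocyte genes measured in every library summed to 1237 CPM in LP and 1812 CPM in NP male prefrontal cortex, and to 1126 and 1316 CPM in LP and NP females. They summed to 3952 CPM in LP and 3517 CPM in NP male hippocampus, to 3913 and 4365 CPM in LP and NP females, and to 2289 and 3040 CPM in LP and NP hypothalamus. The part of these genes in the Irs2 difference was not tested.

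The other 9 members did not pass the diet test. With Irs2, 4 of the 10 had an unadjusted p under 0.05, beside 14.0% of all genes. Igfbp2 was higher in LP in all 5 pairs, with pair ratios of 0.05 to 0.31 in the 4 pairs of hippocampus and prefrontal cortex and 1.24 in hypothalamus. Its fitted difference was 0.50 ± 0.14 (SE, adjusted p = 0.129), and 0.20 without the hypothalamic pair. Lepr had a fitted difference of 0.62 ± 0.23 (adjusted p = 0.244), with pair ratios from -0.85 in male prefrontal cortex to 1.06 in hypothalamus. Without the hypothalamic pair it was -0.12, and without the male prefrontal pair 0.86 (adjusted p = 0.0412). Socs3 was higher in LP in 4 of 5 pairs, at 0.38 ± 0.14 (adjusted p = 0.229), with its largest ratio, 0.68, in male prefrontal cortex.

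For the remaining members the 95% intervals show the sizes these libraries allow. They ran from -0.16 to 0.14 for Insr, from -0.02 to 0.22 for Igf1r, from -0.01 to 0.25 for Foxo1 and from -0.055 to 0.39 for Irs1. They ran from -0.18 to 0.43 for Igf1 and from -0.01 to 0.43 for Irs4, whose estimate rests on the hypothalamic pair because the other libraries hold 2 to 6 counts. Counted by direction, 9 of the 10 fitted differences were positive, with a median of 0.19, beside 49.9% positive and a median of 0.00 over all genes tested. This count leans on the male hypothalamus pair, in which all 10 members were higher in LP. Without that pair Lepr was at -0.12, and leaving out a single pair took Igf1 as low as -0.08. By pair, Igf1 was higher in LP in 2 of 5.

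**Figure D3:**
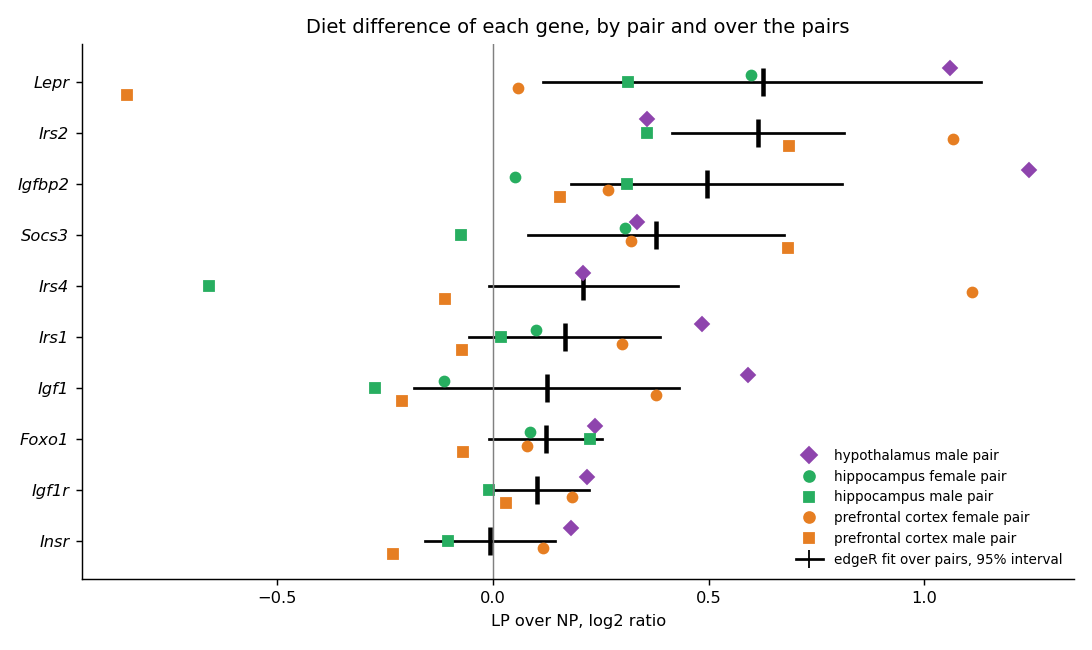
Log2 ratio of LP over NP (x axis) for each gene in each pair (coloured symbols) with the fitted difference and its 95% interval (black). Irs2 lies right of 0 in all 4 of its pairs, and the hypothalamic pair gives the highest ratio of 7 genes, among them Igfbp2, Lepr, Igf1 and Irs1.

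In the male hypothalamus pair all 10 members were higher in LP, beside 49.3% of the 17379 genes with a count there among those tested for diet. This is 1 library against 1, with no replicate and no test. Igfbp2 had 105 CPM in LP and 44.5 CPM in NP, a log2 ratio of 1.24 (exact 95% counting interval 1.13 to 1.37). Lepr had 13.5 CPM in LP and 6.44 CPM in NP (1.06, interval 0.75 to 1.40). Igf1 had 11.3 CPM in LP and 7.46 CPM in NP (0.59, interval 0.27 to 0.92), and Irs1 had 9.5 CPM in LP and 6.76 CPM in NP (0.48, interval 0.14 to 0.84). The other 6 ratios lay between 0.18 for Insr and 0.36 for Irs2. The interval lay above 0 for 9 genes, all but Socs3 (0.33, interval -0.07 to 0.74), beside 16.4% of all genes. It covers counting error only.

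Other tissue markers differed between these 2 libraries. Leptomeningeal genes summed to 385 CPM in LP and 170 CPM in NP, a log2 ratio of 1.18, with all 12 listed genes higher in LP. Hypothalamic peptide and transcription factor markers summed to 589 CPM in LP and 929 CPM in NP (-0.66). The genes in this sum went both ways. Avp (153 CPM in LP, 290 CPM in NP), Oxt (86.6 and 193), Hcrt, Pmch, Otp and Lhx6 were lower in LP. Pomc (124 CPM in LP, 110 CPM in NP), Nkx2-1 (48.4 and 38.8) and Nr5a1 (23.1 and 18.5) were higher in LP. Sim1 was near equal (9.79 and 9.71). Pituitary genes summed to 26.4 CPM in LP and 106 CPM in NP (-2.01). Blood genes differed by -0.57, oligodendrocyte genes by -0.41 and endothelial genes by 0.31 on the log2 scale, and neuronal and astrocyte lists by -0.06 and 0.02. The part of these cells in the ratios of Igfbp2, Lepr and Igf1 was not tested.

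**Figure D4:**
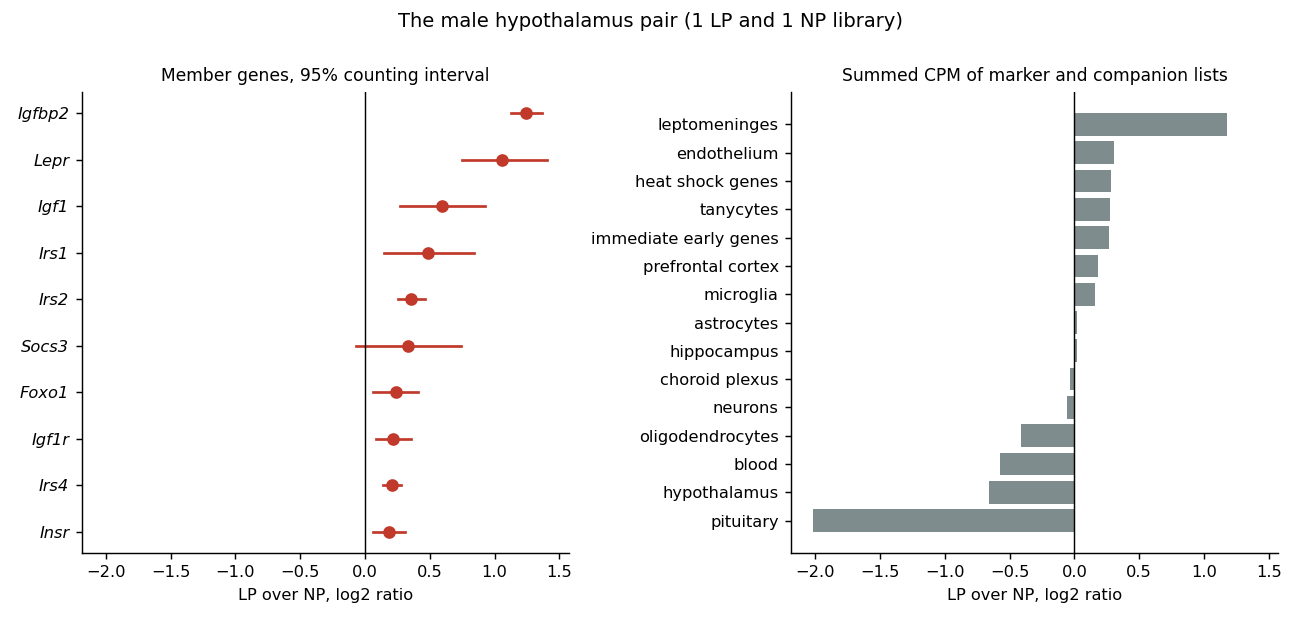
The male hypothalamus pair, with the log2 ratio of LP over NP on the x axis: left, the 10 genes with exact 95% counting intervals; right, the summed CPM of marker and companion lists. Igfbp2 and Lepr, at 1.24 and 1.06, lie near the leptomeningeal list at 1.18.

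Within regions the diet difference could be tested for the 6 members measured in every library. In prefrontal cortex 0 of 6 passed edgeR's test, beside 1.29% of all genes, with 2 at an unadjusted p under 0.05 (13.1% of all genes) and 0 by DESeq2. These 2 were Igfbp2 (0.21 ± 0.08 SE, adjusted p = 0.273) and Socs3 (0.54 ± 0.22, adjusted p = 0.277). In hippocampus 0 of 6 passed, beside 0.281% of all genes, with 0 at an unadjusted p under 0.05 (5.76% of all genes) and 0 by DESeq2. Hippocampal differences ran from -0.20 for Igf1 to 0.52 for Lepr. The 6 choroid plexus markers measured in every library summed to 223 CPM in LP and 117 CPM in NP male hippocampus. In female hippocampus they summed to 201 CPM in LP and 50.4 CPM in NP. Their part in the hippocampal differences was not tested. For the diet difference in hippocampus minus that in prefrontal cortex, 0 of 6 passed and 0% of all genes did, with 0 of 6 at an unadjusted p under 0.05 (614 of all genes, 5.23%) and 0 by DESeq2. For the diet difference in females minus that in males, 0 of 6 passed, beside 0.191% of all genes, with 0 at an unadjusted p under 0.05 (6.62% of all genes) and 0 by DESeq2. Lepr had the largest values of these differences, 0.95 (95% interval -0.25 to 2.15) between regions and 0.72 (-0.42 to 1.86) between sexes. Irs2 could not be tested this way.

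Other genes of the pathway mostly did not pass the diet test, and neither did most genes tested. Over all genes tested 1.38% were called by edgeR, and 14.0% reached an unadjusted p under 0.05. By edgeR 0 of 13 other ligands, receptors and binding proteins passed, 3 of them having an unadjusted p under 0.05, and 0 of 28 genes of PI3K, AKT and mTOR, with 2. Leptin, JAK and STAT genes gave 0 of 20, with 3 at that level, FoxO factors and targets 0 of 18, with 2, and growth hormone axis receptors 0 of 8, with 1. DESeq2 called none in these 5 lists. The list medians lay between 0.02 and 0.11, beside 0.00 over all genes tested.

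Among 17 adaptors and phosphatases, Ptpn1 was higher in LP. It encodes PTP1B, a phosphatase that removes phosphate from the insulin receptor and from the JAK2 kinase of the leptin receptor. The difference was 0.24 ± 0.05 (SE, 1.18-fold, adjusted p = 0.042) over the pairs and 0.34 ± 0.07 (adjusted p = 0.0293) in prefrontal cortex. The direction held in all 9 alternatives over the pairs, from 0.20 to 0.275, but the call was lost in 6 of them, with adjusted p up to 0.196, DESeq2 (0.089) included. Within prefrontal cortex the call was lost in 4 of 8 alternatives, with differences from 0.289 to 0.385. DESeq2 called 0 of the 12 adaptors and phosphatases tested there.

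**Figure D5:**
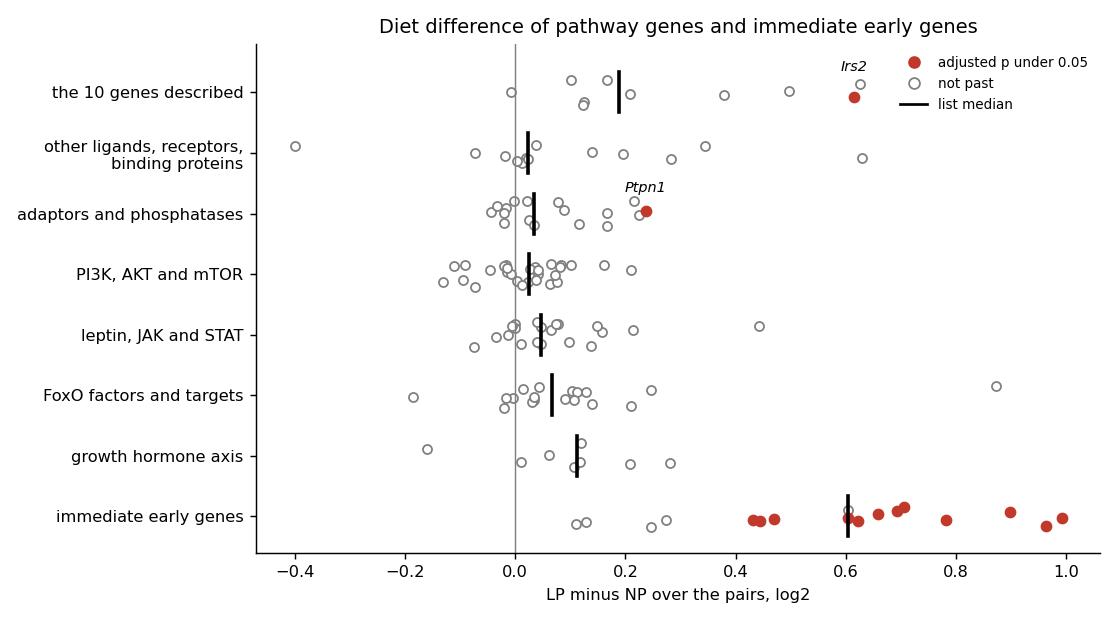
Fitted diet difference over the pairs, LP minus NP on the log2 scale (x axis), for the 10 members, 6 lists of other pathway genes and the immediate early genes, with genes past an adjusted p of 0.05 in red and the list median as a black bar. Irs2 and Ptpn1 are past it among pathway genes, against 12 of 17 immediate early genes.

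Sex was compared in hippocampus and prefrontal cortex within region and diet, where 9 members could be tested. In edgeR 0 of 9 passed, beside 0.617% of all genes, with 2 at an unadjusted p under 0.05 (9.23% of all genes) and 0 by DESeq2. Igfbp2 was higher in females in each comparison of region and diet, at 0.27 ± 0.07 (SE, adjusted p = 0.116). Igf1r was at -0.12 ± 0.06 (adjusted p = 0.529). The other 7 differences lay between -0.08 for Irs1 and 0.14 for Lepr. Of 17 listed immediate early genes, 12 were lower in females by edgeR and 5 by DESeq2, with none higher. Irs2 was at 0.08 ± 0.06 (SE) in this comparison.

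As a description, the genes whose log2 CPM most resembled each member over the 9 complete libraries were found by Pearson correlation among 12463 genes of at least 5 CPM. These points share region differences, and no p is given. Lepr was closest to Slc6a20a (r = 0.994), a leptomeningeal marker on the list above, then to Ifitm2 (0.99) and Ptgds (0.989), the prostaglandin D synthase gene. Irs4 was closest to Tppp3, Antxr1 and 6330403K07Rik (each 0.994). Igf1r was closest to Ccny (0.992), Celf1 (0.991) and Nav2 (0.99), Foxo1 to Ddx21 (0.988), Ccdc85a and Lix1l (each 0.984), Irs1 to Api5 (0.982), Cpd (0.973) and Nup153 (0.972), and Insr to Gja1 (0.982), the astrocyte connexin gene, Btbd7 (0.978) and Rnf138 (0.953). Igfbp2 was closest to Tmem64 (0.977), Slc22a8 (0.968) and Utrn (0.967), and Socs3 to Hbegf (0.963), Bcl2 (0.962) and Rhpn1 (0.951). Irs2 and Igf1 had lower values, Irs2 with Cpeb3 (0.945), Car5b (0.929) and Snrnp70 (0.925), and Igf1 with Rbm48 (0.925), Svil (0.909) and Tor1aip1 (0.904). No member was among the 3 nearest genes of another.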

How the data were processed

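Libraries (TruSeq) came from total RNA, 1 per region, sex and diet. CASAVA, FastQC 0.10.1, STAR 2.5.0a and mm10 were used, per the submitters' processing notes; counter, strand setting and annotation are not given. The values are whole-number counts of reads per gene, as the authors deposited them, unscaled. Genes were placed with GENCODE M21 (419 identifiers unmatched).

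TMM factors came from the 28131 genes held by all libraries, and library sizes were raised to full-library scale for CPM. Genes passing filterByExpr (minimum count 10) were tested with edgeR 4.0.16 in R 4.3.3 (quasi-likelihood F test, Benjamini-Hochberg over all genes tested, threshold 0.05). A gene absent from the incomplete library used the remaining libraries or pairs, and was not tested within regions or for differences of the diet effect. The pair of region and sex was a block for diet, sex and diet were terms for region, and region with diet was a block for sex. Ratios within a pair use a prior count of 2, with exact 95% counting intervals that cover counting error only. On unscaled total counts, 3 counts are worth 0.184 to 0.292 CPM in complete libraries and 0.381 CPM in the incomplete one. The CPM of genes use the scaled sizes, by which 9 counts of Lepr made 0.78 CPM in the incomplete library. Promoters are RefSeq entries (GRCm38.p6), searched over 250 bases; protein sequences were not used here. The fits were checked on simulated counts.

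Alternatives were DESeq2 1.42.0, edgeR's earlier method, RLE scaling, no low-count filter, male libraries only, and leaving out pairs or libraries. Leaving out pairs within regions and DESeq2 for differences of the diet effect were chosen after seeing the data. Members, gene lists and tests were chosen with earlier results of these data known. All members are named; another pathway or immediate early gene is named only where it passed the threshold in the comparison described and was among the 4 smallest p of its list and direction. Genes most like a member are the 3 highest correlations.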

Additional observations from a re-analysis of the deposited data

Results flagged for a closer look

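The LP to NP ratio of Igfbp2 in the male hypothalamus pair, 1.243 on the log2 scale, stood apart from the other 4 pairs, which lay between 0.05 and 0.31. Its gap to the nearest pair was 0.783 of the whole range over 5 pairs. This was the single value to stand apart in 26 groups of 4 or more values examined, and chance gives about 1 in 20. The leptomeningeal markers in this pair summed to 385 CPM in LP and 170 CPM in NP. Their part in the ratio was not tested.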

How the results depend on the processing

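The call of Irs2 for diet held under all 9 alternatives. Over single features, 970 alternative values kept direction and side of the threshold, 32 lost a call, 9 gained one and 23 changed sign; over counts, 120 stayed within 1.5 times and 14 did not. The causes of the changes below were not tested.

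DESeq2 called 124 genes for diet over the pairs (118 of them among edgeR's 241), 14 within prefrontal cortex (edgeR 152), 11 within hippocampus (33), 34 for sex (103) and 12 for the diet difference between sexes (21). Without the low-count filter 21 genes were called within prefrontal cortex and 5 within hippocampus. Leaving out 1 pair at a time gave 87 (without the female prefrontal pair) to 288 genes (without the hypothalamic pair) over the pairs, 36 to 488 within prefrontal cortex and 30 to 89 within hippocampus, and 1 to 2 members called for diet.

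Leaving out 1 pair changed the sign of uncalled differences. For diet over the pairs the ranges were -0.083 to 0.066 for Insr, -0.079 to 0.219 for Igf1 and -0.115 to 0.859 for Lepr. Within prefrontal cortex they were -0.214 to 0.385 for Igf1, -0.070 to 0.304 for Irs1 and -0.903 to 0.052 for Lepr, and within hippocampus -0.073 to 0.320 for Socs3. For females against males they were -0.127 to 0.040 for Insr, -0.112 to 0.072 for Igf1, -0.085 to 0.188 for Irs2, -0.119 to 0.331 for Lepr, -0.037 to 0.333 for Socs3 and -0.051 to 0.004 for Foxo1. Leaving out 1 library gave -0.046 to 0.204 for Insr and -0.306 to 0.110 for Irs1 in hypothalamus against prefrontal cortex, -0.235 to 0.015 for Insr and -0.021 to 0.654 for Igf1 in hypothalamus against hippocampus, and -0.064 to 0.013 for Igf1r in hippocampus against prefrontal cortex. Lepr and Irs4 outside hypothalamus rest on 9 to 33 and 2 to 6 counts, which limits what could be detected there.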
